A study of Homo sapiens with 4 samples.

Results

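The interleukin 1 family was examined in 786-O cells (CRL-1932), a human cell line of clear cell renal cell carcinoma, through 10 genes taken from the 17687 named genes on the array. These were the ligand genes IL1A, IL1B, IL18 and IL33, the antagonist gene IL1RN, the receptor genes IL1R1, IL1RAP and IL1RL1, the decoy receptor gene IL1R2 and the kinase gene IRAK2. A gene entered by its symbol in the array's annotation, and each of the 10 had 1 probe set, so no choice between probe sets was needed. RNA came from 2 dishes of MCP-1-treated cells (labelled 5 ng/mL for 16 h, whereas the study's methods give a longer exposure) and from 2 dishes of untreated cells of the same passage, 1 Clariom S array per dish. All cells grew in RPMI1640 medium with fetal bovine serum, and both groups are 1 established tumor line, which limits them as a model of a tumor. The values were log2 signals, on which a difference of 1 stands for a doubling. P-values measured the spread between these dishes only, and those of limma draw on that spread over all probe sets. With 2 against 2 arrays the exact two-sided permutation test cannot go below p = 0.333.

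Interleukin 1α and interleukin 1β, the products of IL1A and IL1B, bind the receptor encoded by IL1R1, which then recruits the accessory protein encoded by IL1RAP. The assembled receptor engages MYD88 and kinases of the IRAK group and leads to NF-κB and AP-1, which switch on chemokine genes such as CCL2, the gene of MCP-1. IL1RN encodes an antagonist that occupies the receptor without signaling, and IL1R2 a receptor that binds ligand without passing a signal on. IL-18 uses a receptor pair of its own, whereas IL-33 binds the product of IL1RL1 together with that of IL1RAP. With CCL2 a target of this pathway, the comparison asks whether added MCP-1 went along with a difference in the pathway's own ligands and receptors.

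IL1R1, IL1RAP and IL1R2 gave clear signal in these cells, IRAK2 and IL18 lay close to the background, and IL1A, IL1B, IL33, IL1RN and IL1RL1 lay within it. The 612 probe sets that the array names as negative controls served as a measure of background. They had a median signal of 3.71 over the 4 arrays. Their 90th percentile, 6.11, is called the background level here. On every array these 3 receptor genes lay above the 90th percentile of that array's own controls, which was 6.36 and 6.70 in MCP-1-treated cells and 6.48 and 6.36 in untreated cells. IRAK2 lay just above the background level by its mean, and IL18 just below it, and each was above its own array's percentile on 1 array of 4. The other 5 genes lay below it on every array. The count above background, 4 by the means, was 3 against the 95th percentile of the controls, 5 with 1 array above enough, and 6 against their median, which added IL1A and IL18. For comparison, 50.7% of the 21448 tested probe sets had a mean above that level. A signal in the range of the negative controls does not show that a transcript was absent, and with 4 arrays the precision of each value is limited. In bulk RNA, fewer cells with a transcript and less of it per cell cannot be told apart.

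Stretches upstream of the start sites were read for the members from RefSeq (GRCh38.p14), where 9 of the 10 genes had 18 start sites in all. They are given in full for IL1B and IL1A, as ligand genes in the range of the negative controls. The other 2 given are those of IL1RAP, a receptor gene with clear signal, and IRAK2, a kinase gene just above the background level. Each runs over the 250 bases before a start site, 5′ to 3′ on the strand of the gene, with every CpG dinucleotide in capitals.
IL1B, chr2:112836780-112837029, minus strand: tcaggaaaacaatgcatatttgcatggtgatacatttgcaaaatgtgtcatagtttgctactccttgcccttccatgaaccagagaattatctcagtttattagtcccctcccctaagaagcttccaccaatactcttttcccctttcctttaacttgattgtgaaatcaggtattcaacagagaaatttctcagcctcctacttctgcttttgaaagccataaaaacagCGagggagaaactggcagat
IL1A, chr2:112784401-112784650, minus strand: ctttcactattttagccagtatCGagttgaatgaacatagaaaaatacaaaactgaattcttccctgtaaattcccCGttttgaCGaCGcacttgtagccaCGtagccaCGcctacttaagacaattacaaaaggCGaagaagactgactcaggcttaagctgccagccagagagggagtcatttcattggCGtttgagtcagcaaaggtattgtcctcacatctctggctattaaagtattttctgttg
IL1RAP, chr3:190513835-190514084, plus strand: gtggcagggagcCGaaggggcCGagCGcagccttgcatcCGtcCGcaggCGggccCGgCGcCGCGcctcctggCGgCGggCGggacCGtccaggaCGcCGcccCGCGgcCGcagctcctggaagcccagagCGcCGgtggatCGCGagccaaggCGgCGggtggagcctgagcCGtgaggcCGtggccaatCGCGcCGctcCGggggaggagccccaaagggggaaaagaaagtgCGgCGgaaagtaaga
IRAK2, chr3:10164669-10164918, plus strand: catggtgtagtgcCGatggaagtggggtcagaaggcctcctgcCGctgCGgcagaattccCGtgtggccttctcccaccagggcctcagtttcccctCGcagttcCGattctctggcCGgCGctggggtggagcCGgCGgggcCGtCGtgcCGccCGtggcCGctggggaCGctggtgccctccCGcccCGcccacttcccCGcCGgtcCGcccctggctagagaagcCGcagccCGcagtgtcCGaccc
The stretch of IL1B held 1 CpG and was 40% G and C, and that of IL1A held 8 CpG and was 42% G and C. The stretch of IL1RAP held 33 CpG at 74.8% G and C, and that of IRAK2 24 CpG at 72% G and C. Over all 35116 such stretches in the table the medians were 11 CpG and 58% G and C. The 4 start sites of IL1R1 spread from 3 to 31 CpG, and those of IL1R2, which also had clear signal, held 1 and 9, so CpG number did not follow signal in every member. The AP-1 motif (TGANTCA, searched on both strands) was found in 4 of the 18 stretches, some of which overlap, against 6.57% of all stretches. Of the 4, 2 are overlapping stretches of IL1A that share 1 of its matches, and the printed one has matches from 105 to 99 and from 55 to 49 bases before the start. The NF-κB consensus motif was found in 0 of the 18, against 5.21% of all. A match or its absence in these letters is a description of the sequence and says nothing of factor binding in these cells.

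**Figure D1:**
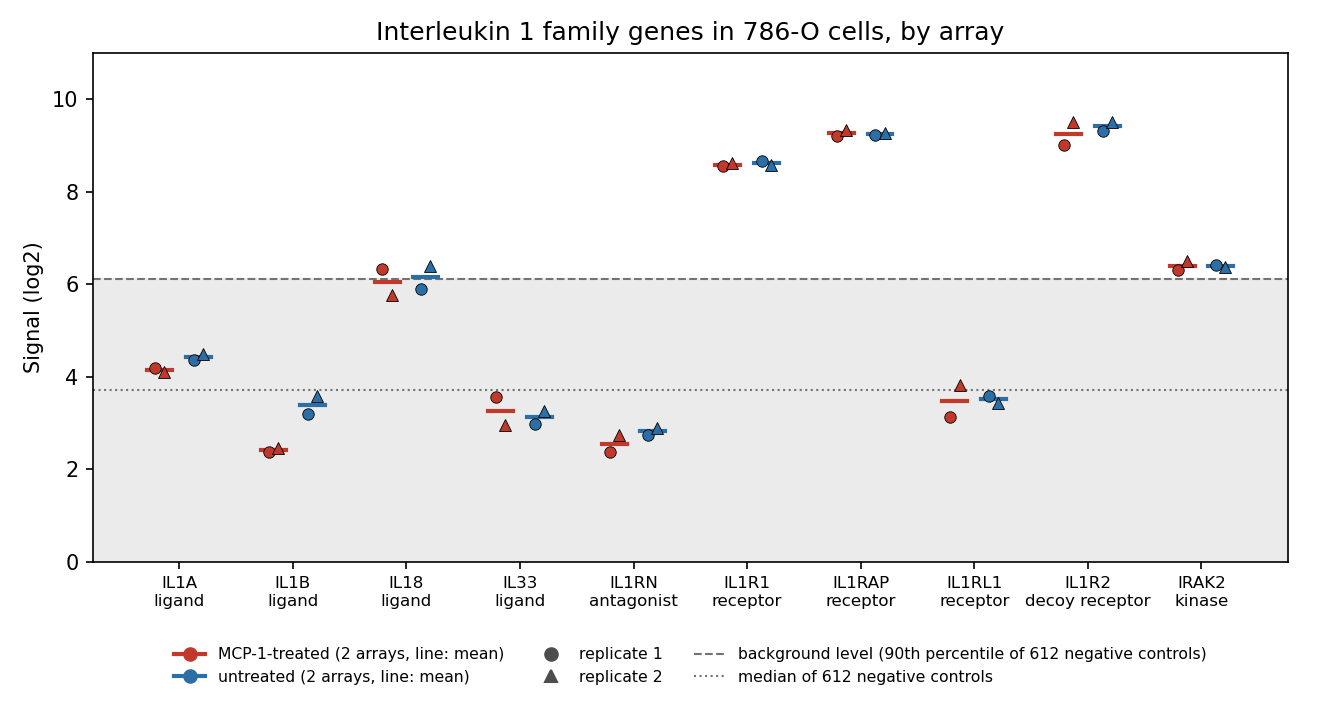
Log2 signal (vertical axis) of the 10 genes on each of the 4 arrays, with MCP-1-treated cells left of untreated cells for each gene. Points are single arrays (circle, replicate 1; triangle, replicate 2), short lines are means of 2 arrays, and the shaded area lies below the background level, the 90th percentile of 612 negative controls at 6.11. IL1R1, IL1RAP and IL1R2 lie well above the shaded area in both groups.

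Among the ligands, IL1B showed the widest difference between the groups, all of it within the range of the negative controls. The log2 signal of IL1B was 2.38 and 2.46 in MCP-1-treated cells, against 3.19 and 3.59 in untreated cells. Both treated arrays were thus below both untreated arrays. Of the 612 negative controls, 24.8% had a mean signal below that of IL1B. The difference was -0.97 (standard error 0.25, 95% interval -1.52 to -0.42, n = 2 arrays per group), with an adjusted p = 0.639 from limma over all probe sets, so IL1B did not pass the threshold. Its unadjusted p was 0.00262 from limma with a block for replicate number, 0.00399 from limma with no block, and 0.106 by the paired test of the methods.
The difference of IL1B was set against tested probe sets of the same dimness and against the negative controls at any signal. Of 6559 tested probe sets with a mean log2 signal from 2 to 4, 15 (0.229%) had a difference as low as IL1B. Of all 612 negative controls, 65 (10.6%) had one as low. The controls were not limited to that signal range, so these shares are not compared at like signal. The negative controls, again at any signal, varied far more between groups than dim gene probe sets did. Their median absolute difference was 0.505, against 0.198 for the dim probe sets. The number of probes behind either kind of probe set is not given in the table. Its part in this gap, and that of signal, was not tested. With all 4 signals of IL1B inside the range of the controls, the difference is one of array signal, and no fold of the transcript is given.

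IL1A, the gene of the other ligand of IL1R1, had log2 signals of 4.19 and 4.10 in MCP-1-treated cells and 4.36 and 4.49 in untreated cells. The treated arrays were again below the untreated ones, by -0.28 on average (95% interval -0.82 to 0.26, limma). IL18, the gene of a cytokine that epithelial cells can store as a precursor, had 6.33 and 5.76 in MCP-1-treated cells and 5.91 and 6.39 in untreated cells. These groups overlapped, and the replicate pairs differed in direction (0.42 and -0.63). The mean of IL18, 6.10, was the nearest below the background level, and that of IRAK2, 6.40, the nearest above it. IL33, the gene of a nuclear cytokine released by damaged cells, had 3.56 and 2.96 in MCP-1-treated cells against 2.98 and 3.26 in untreated cells, also with overlap and with a difference of 0.14. IL1RN, the antagonist gene, had 2.38 and 2.73 in MCP-1-treated cells against 2.74 and 2.89 in untreated cells. Its treated arrays were below both untreated ones, although the nearest were 0.01 apart, and its difference was -0.26 (95% interval -0.80 to 0.28, limma).
The 3 genes whose groups did not overlap (IL1A, IL1B and IL1RN) were all lower in MCP-1-treated cells and all in the range of the negative controls. Over all tested probe sets, 15.2% had treated arrays below both untreated arrays and 16.3% had them above.

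The group means of the 3 receptor genes with clear signal differed by -0.16 to 0.02, with intervals that included 0. IL1R1, the signaling receptor of both interleukin 1 ligands, had log2 signals of 8.56 and 8.61 in MCP-1-treated cells and 8.67 and 8.58 in untreated cells. The 4 arrays spanned little and the groups overlapped, with a difference of -0.03 (standard error 0.24, 95% interval -0.57 to 0.50, limma). As a ratio of treated to untreated signal, that interval runs from 0.672 to 1.42. Its width comes mostly from the spread that limma shares over all probe sets (prior of 9.60 against 1 residual degree of freedom). IL1RAP, the accessory chain shared by the interleukin 1 and interleukin 33 receptors, had 9.21 and 9.33 in MCP-1-treated cells and 9.22 and 9.26 in untreated cells. Its treated arrays lay on either side of the untreated ones, and its difference was 0.02 (95% interval -0.51 to 0.56), a ratio from 0.701 to 1.48.
IL1R2, the decoy receptor gene, had 9.00 and 9.51 in MCP-1-treated cells and 9.31 and 9.52 in untreated cells. The treated array of replicate 1 was the lowest of the 4, and the other treated array matched its untreated partner to within 0.01. Its difference was -0.16 (standard error 0.25, 95% interval -0.70 to 0.39, limma). IL1RL1, the receptor gene for IL-33, had 3.13 and 3.82 in MCP-1-treated cells and 3.59 and 3.44 in untreated cells, within the range of the negative controls, with overlap and a difference of -0.04. IRAK2, a kinase that carries the signal of the interleukin 1 receptor onward, had 6.30 and 6.50 in MCP-1-treated cells and 6.41 and 6.37 in untreated cells, a difference of 0.01 (95% interval -0.53 to 0.55, limma). The untreated arrays of IRAK2 lay between the treated ones.
IL1R2, IL1R1, IL1RL2, IL1RL1, IL18R1 and IL18RAP follow one another among the protein-coding genes of chromosome 2 in RefSeq. Of this run, IL1R2 and IL1R1, at 1 end, were above the background level, and the other 4 genes were below it. Another run of that chromosome goes from IL1A and IL1B through IL37, IL36G, IL36A, IL36B, IL36RN and IL1F10 to IL1RN, and all 9 were below the background level.

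**Figure D2:**
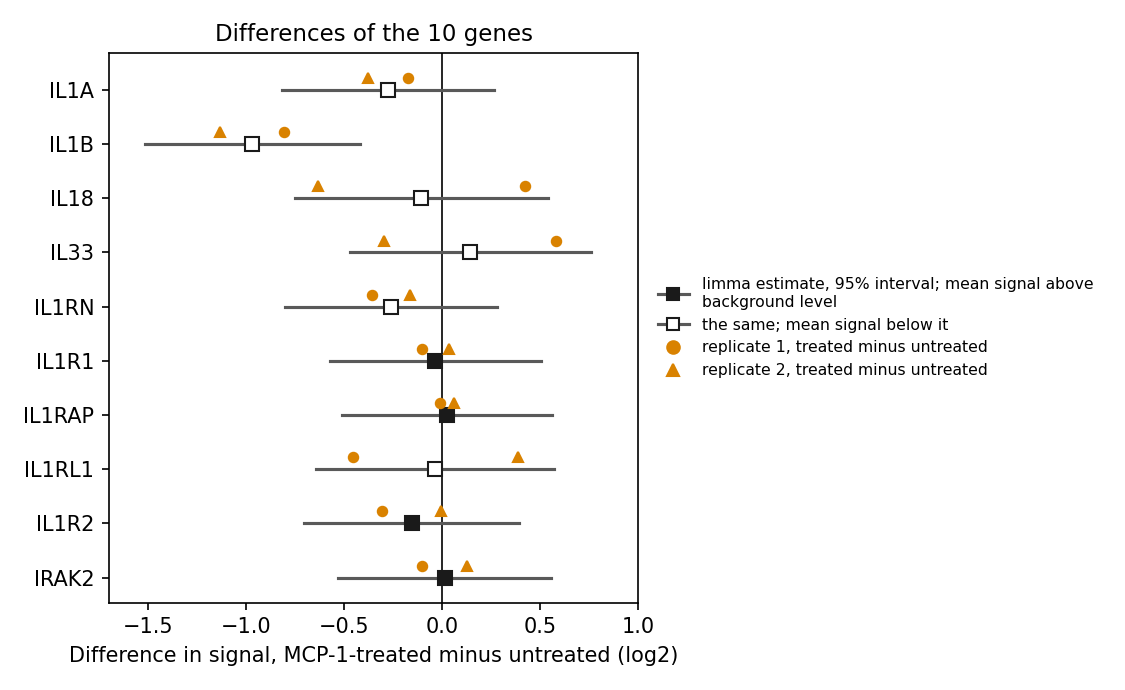
Difference in log2 signal, MCP-1-treated minus untreated (horizontal axis), for each gene. Squares are limma estimates with 95% intervals, filled where the mean signal is above the background level, and orange points are the differences within replicate 1 (circle) and replicate 2 (triangle). The interval of IL1B, -1.52 to -0.42, is the one that leaves out 0.

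None of the 10 genes passed an adjusted p of 0.05 from limma, where 7 of the 21448 probe sets did (0.0326%). At an unadjusted p under 0.05, 1 of the 10 passed by limma (IL1B), against 4.95% of all probe sets, and with no replicate block it was again 1 (IL1B), against 4.51%. By the paired test of the methods 0 of the 10 passed at that level, against 4.53%. None passed both p under 0.05 and a fold of 2, which 0.434% of all probe sets did. For the 9 genes other than IL1B, differences ran from -0.28 to 0.14, unadjusted p from 0.283 to 0.963, and the 95% intervals of limma reached at most -0.82 on the low side and 0.76 on the high side. Changes within a gene's interval remain possible with these 4 arrays, and the bounds are not limits of detection. IL1B, at -0.97, lay beyond them and still did not pass the adjusted threshold. The treated mean was lower in 7 of the 10 genes, against 47.7% of all probe sets, and the median difference was -0.07, against 0.01 over all probe sets. Among the 4 genes above the background level, the treated mean was lower in 2 and higher in 2.

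**Figure D3:**
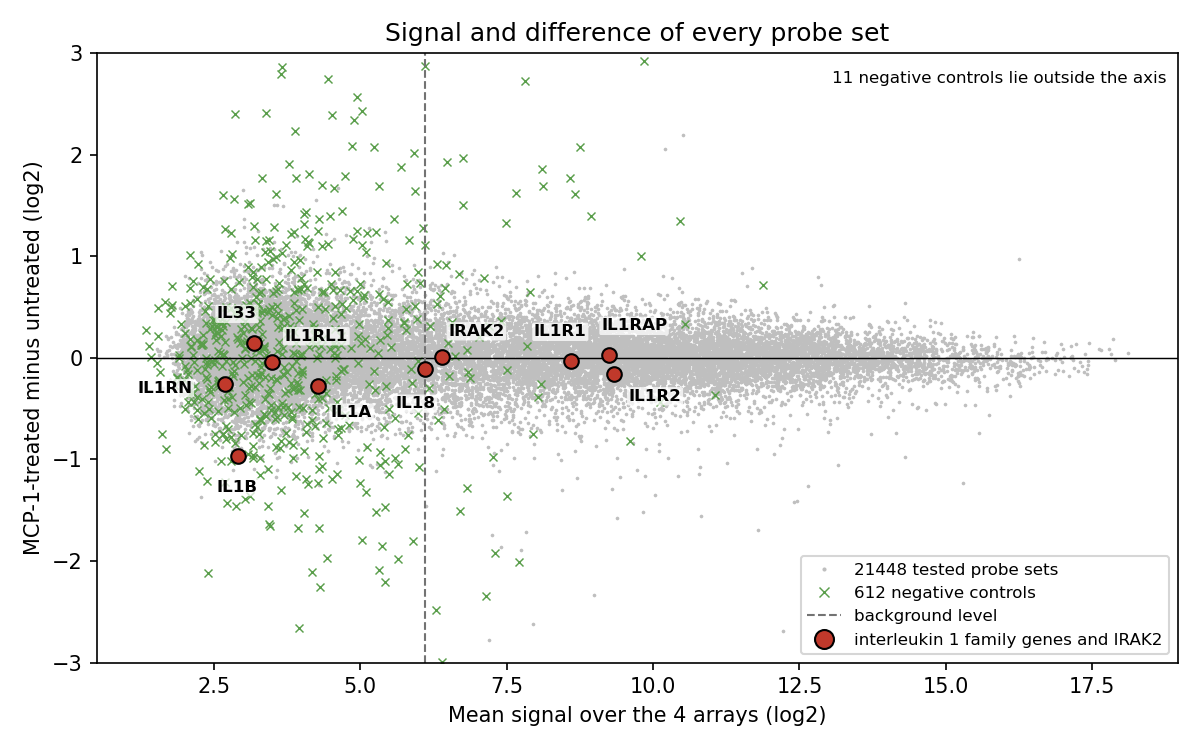
Mean log2 signal over the 4 arrays (horizontal axis) against the difference in log2 signal, MCP-1-treated minus untreated (vertical axis), for 21448 tested probe sets (grey), 612 negative controls (green crosses, 11 of them beyond the axis at 3) and the 10 genes (red). IL1B sits at the lower edge of the grey points at -0.97 but among the crosses, and the other 9 genes sit within the bulk of the grey points.

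The rest of the pathway was read from 5 lists of genes, and no gene of these lists passed the adjusted threshold of limma in either direction (0.00932% of all probe sets were higher and 0.0233% lower). At an unadjusted p under 0.05 from limma, 1 signaling gene (MAP3K8) and 7 genes induced by interleukin 1 passed, all lower, and 0 genes of the other 3 lists did, against 4.95% of all probe sets. Of 7 other ligands and antagonists, 1 was above the background level. This was IL18BP, the gene of a soluble protein that neutralizes IL-18, with 7.21 and 7.53 in MCP-1-treated cells and 7.32 and 7.25 in untreated cells. IL1F10, the gene of IL-38, had the smallest p of that list, at a difference of -0.36 (adjusted p = 1 from limma) and in the range of the negative controls. Next came IL36A at 0.15, IL36RN at -0.10 and IL36B at -0.11, also in that range. Of 6 other receptors, 0 were above the background level. IL18R1, the ligand-binding chain for IL-18, was at 5.32 and 4.94 in MCP-1-treated cells and 5.72 and 5.35 in untreated cells, a difference of -0.40 (adjusted p = 1 from limma). The next by p were IL1RAPL2 at 0.23, IL1RAPL1 at -0.20 and IL18RAP at 0.10.

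Interleukin 1β is made as a precursor that the protease caspase-1 cuts inside the inflammasome, a complex that forms around sensors such as NLRP3 with the adaptor PYCARD. Of 16 measured genes of processing and release, 6 were above the background level. CASP1 had 2.70 and 3.32 in MCP-1-treated cells against 3.74 and 2.48 in untreated cells, in the range of the negative controls and with overlap. NLRP3 and PYCARD were also in that range, with differences of -0.23 and -0.23. The 6 genes with clear signal were CASP8 at a difference of -0.12, CASP4, which senses bacterial lipopolysaccharide in the cytosol, at -0.32, GSDMD, the pore-forming gasdermin, at -0.09, the calpain genes CAPN1 at -0.0034 and CAPN2 at -0.11, and the channel gene PANX1 at 0.16. The smallest p in this list was that of CASP5, at -0.53 (adjusted p = 1 from limma), followed by MEFV at -0.41, AIM2 at 0.41 and CTSG at 0.32, all 4 in the range of the negative controls. The list had a lower treated mean in 12 of 16 genes, most of them in the range of the negative controls, against 47.7% of all probe sets. Its median was -0.12, against 0.01 over all probe sets. Of the 6 genes above the background level, 5 had a lower treated mean (83.3%, against 48.8% of all probe sets above that level), with a median of -0.10.
Below the receptors, 19 of 23 measured signaling genes were above the background level, and the treated mean was lower in 10 genes and higher in 13 (median 0.01). MYD88, the adaptor that joins the receptor to IRAK kinases, had 10.17 and 10.29 in MCP-1-treated cells against 10.04 and 9.89 in untreated cells, a difference of 0.26 (adjusted p = 1 from limma). MAP3K8, a kinase that feeds the ERK pathway, had 9.38 and 9.70 in MCP-1-treated cells against 10.22 and 10.14 in untreated cells. Its groups did not overlap, with a difference of -0.64 (standard error 0.25, adjusted p = 0.960 from limma). CHUK, the gene of IKKα, was at 0.39 and MAP2K6, a p38 kinase activator, at -0.46. In this list, 4 of 23 genes, MAP3K8 and MAP2K6 among them, had both treated arrays below both untreated arrays, against 15.2% of all probe sets. Another 3, MYD88 and CHUK among them, had both treated arrays above, against 16.3%.

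Genes that interleukin 1 is known to induce stood lower in MCP-1-treated cells more often than higher. Of 29 measured, 18 were above the background level, the treated mean was lower in 26 and higher in 3, and the median difference was -0.22, against 0.01 over all probe sets. Of the 18, 16 had a lower treated mean (88.9%, against 48.8% of all probe sets above that level), with a median of -0.39. In 16 of the 29 both treated arrays lay below both untreated arrays, against 15.2% of all probe sets, and 7 had an unadjusted p under 0.05 in the lower direction from limma, against 2.36%. None passed the adjusted threshold. The list shares genes with NF-κB target lists that had earlier been seen to be lower on these arrays, so its direction is not independent evidence.
CXCL8, a chemokine that attracts neutrophils, had 8.69 and 8.99 in MCP-1-treated cells against 10.06 and 9.97 in untreated cells. Its groups did not overlap, with a difference of -1.18 (standard error 0.25, 95% interval -1.73 to -0.62, adjusted p = 0.453 from limma). TNFAIP3, which ends NF-κB signaling as A20, had 11.46 and 11.73 in MCP-1-treated cells against 12.56 and 12.53 in untreated cells, a difference of -0.95. VCAM1, an adhesion molecule for leukocytes, had 11.18 and 11.48 in MCP-1-treated cells against 12.19 and 12.25 in untreated cells, a difference of -0.90.
The soluble pattern receptor gene PTX3 had 7.67 and 8.13 in MCP-1-treated cells against 8.58 and 9.12 in untreated cells, a difference of -0.95. In all 4 of these genes both treated arrays were below both untreated arrays. They were picked for the smallest p of the list, so this is no further evidence. CCL2 itself had 6.08 and 5.80 in MCP-1-treated cells against 6.41 and 6.38 in untreated cells, near the background level, and the MCP-1 receptor gene CCR2 had 5.27 and 5.44 against 5.56 and 5.60, below it.

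**Figure D4:**
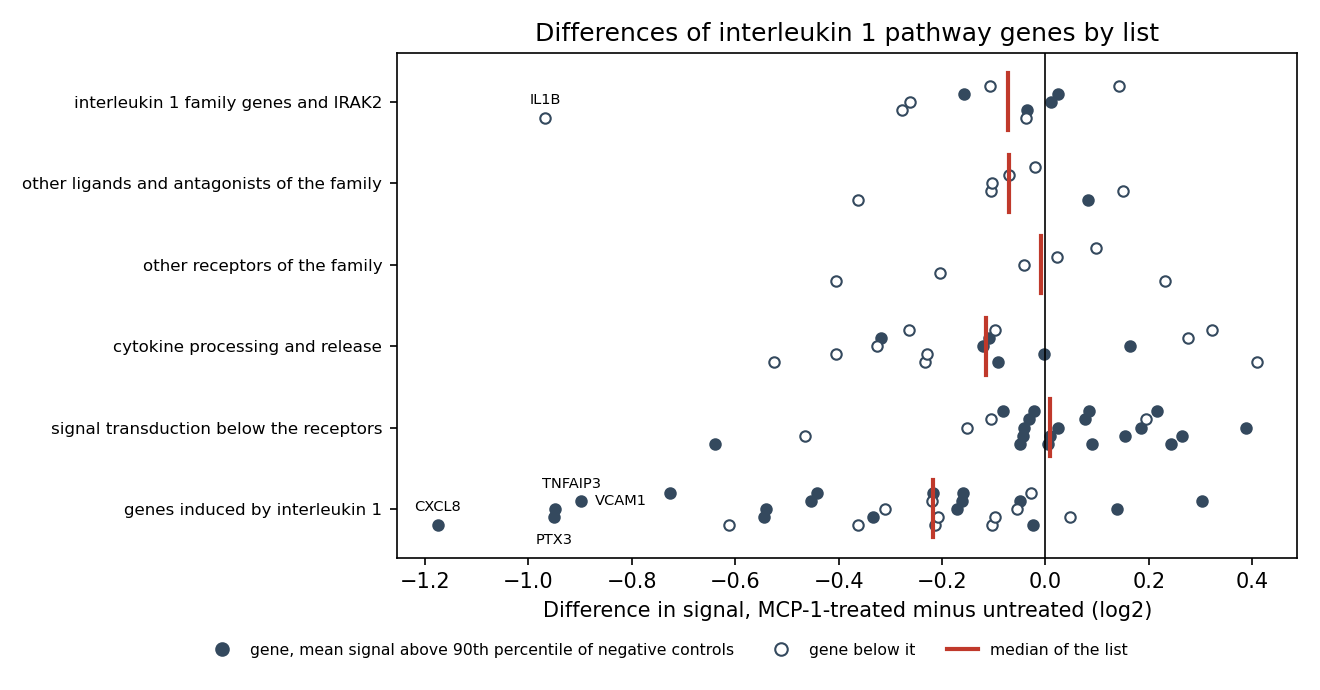
Difference in log2 signal, MCP-1-treated minus untreated (horizontal axis), for each gene of the family and of the 5 pathway lists (rows). Points are genes, filled where the mean signal is above the background level, and red lines are list medians. The median of the genes induced by interleukin 1 is -0.22, and those of signaling genes and other receptors lie near 0, at 0.01 and -0.01.

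The arrays were alike as wholes, with medians over tested probe sets of 6.20 and 6.28 in MCP-1-treated cells and 6.23 in both untreated samples, and correlations across probe sets from 0.993 to 0.995. All 7 measured markers of renal epithelium and clear cell carcinoma (among them PAX8, PAX2, KRT18 and VEGFA) were above the background level. Of 10 markers of monocytes and macrophages, cells that make much interleukin 1β, 1 was above it (TYROBP), and CD14, LYZ and CSF1R were in the range of the negative controls. Their summed log2 signal ran from 41.7 to 43.0 in MCP-1-treated cells and from 40.3 to 41.9 in untreated cells. None of 6 lymphocyte markers and none of 6 endothelial markers was above the background level. The summed log2 signal of the lymphocyte markers ran from 23.9 to 27.8 in MCP-1-treated cells and from 24.0 to 24.2 in untreated cells. That of the endothelial markers ran from 21.1 to 23.3 in MCP-1-treated cells and from 20.79 to 20.83 in untreated cells, without overlap, and 5 of these 6 markers had a higher treated mean. The part of these sums in the differences above was not tested.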

How the data were processed

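Total RNA from 2 MCP-1-treated and 2 untreated dishes of 786-O cells was hybridized to 1 Clariom S array each. The authors scanned the arrays and processed them in Affymetrix Expression Console 1.4 with Signal Space Transformation and robust multiarray averaging, and the deposited values are log2 signals, 1 per probe set and array. Background correction and normalization were therefore done before deposit and left as they were, and no detection calls were used. The 2903 control probe sets among 24351 were removed before testing, which left 21448, and 17709 of these carried a gene symbol. Genes that the array's gene table does not name, such as IRAK1, IRAK4 and CA9, were not analysed here.

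Differences (treated minus untreated) were fitted over all 21448 in R 4.3.3 (limma 3.58.1). The model held the group and a block for replicate number, after the paired test of the study's methods, with Benjamini-Hochberg adjustment. This leaves 1 residual degree of freedom, beside a prior of 9.60. Scripts were tested on simulated data. Background was the 90th percentile of 612 negative controls. The 10 genes and the pathway lists were chosen with earlier results of these data known. Named list genes are the 4 with the smallest p per list, CCL2 and CCR2; CAPN1, CAPN2, CASP1, CASP4, CASP8, GSDMD, PANX1, NLRP3, PYCARD, IL18BP and the cell markers were named after their values were seen. Alternatives were no block, filters on dim probe sets, centring, quantile normalization, another variance prior, each array left out, single pairs and the paired test. Figures used Python 3.11.15 and matplotlib 3.10.9. The number of arrays limits the precision, and the build behind the array is not given in the sources used here.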

Additional observations from a re-analysis of the deposited data

How the results depend on the processing

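None of the 10 genes passed the adjusted threshold under any alternative run. The count over all probe sets, 7 with the replicate block, was 0 with no replicate block, 0 with arrays centred, 0 with quantile normalization, 0 without each array in turn, 4 by the paired test of the methods, 49 with probe sets under the background level (90th percentile of negative controls) removed, 51 without those below the median and 69 with a trended, robust variance prior. Deviations from the group means correlated at -0.0466 between arrays of the same replicate number, so the values showed no shared effect of that number. Whether the dishes were paired in the experiment cannot be read from this. Past p under 0.05 and a fold of 2, the count of the 10 was 0 to 1 without each array in turn (1, IL1B, without MCP-1-treated replicate 2 or untreated replicate 1) and 1 at a fold of at least 1.5. The lower treated mean of 7 genes became 2 of the 4 left by either filter on dim probe sets, and 5 to 8 without each array in turn.

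IL1B stayed lower in all 10 alternatives that hold it, from -1.17 to -0.77, with adjusted p of at least 0.307 from limma. IL1A and IL1RN also kept their direction. In IL1A, IL1B and IL1RN both treated arrays lay below both untreated arrays. Leaving an array out or taking a single pair therefore could not change their direction. Dropping the block or changing the variance prior leaves the estimates as they were. Without each array in turn the difference changed sign for IL18 (-0.39 to 0.18), IL33 (-0.16 to 0.44), IL1R1 (-0.077 to 0.0074), IL1RAP (-0.036 to 0.084), IL1RL1 (-0.38 to 0.31), IL1R2 (-0.41 to 0.10) and IRAK2 (-0.085 to 0.11). The 26 of 29 lower genes induced by interleukin 1 became 22 to 26 in leave-one-out values and 26 after centring or quantile normalization, alternatives added after the data had been seen. For the 16 with both treated arrays below both untreated arrays, leaving an array out could not change the direction. Dim signal limits IL1A, IL1B, IL33, IL1RN and IL1RL1, for which no change of transcript can be sized.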
